A study of Homo sapiens with 41 samples.

Results

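The genes that carry a cell through the G1 phase were followed as 10 genes chosen by symbol, out of 23368 gene rows in each of 5 deposited tables and 21595 in the sixth, and all 10 were listed in all 6 tables. They are the D-type cyclins CCND1, CCND2 and CCND3, the E-type cyclin CCNE1, the kinases CDK4 and CDK6, the CDK inhibitors CDKN1A, CDKN1B and CDKN2C, and the retinoblastoma gene RB1. A gene was tested where its mean over a table was at least 10 normalised reads. By that filter 9 of the 10 were tested in A375, Colo800, H3122 and both tumour tables, and all 10 in UACC62, where CCND2 passed as well.

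D-type cyclins bind CDK4 or CDK6, and these kinases phosphorylate the retinoblastoma protein, which otherwise holds E2F transcription factors in check. CCNE1, itself an E2F target, then acts with CDK2 at entry into S phase. Growth factor signalling through RAF, MEK and ERK is known to raise CCND1 transcription, so that CCND1 is widely read as an output of that pathway. CDKN1A (the p21 protein, a p53 target) and CDKN1B (p27, a FOXO target) act mainly on CDK2 complexes, and CDKN2C (p18), of the INK4 family, binds CDK4 and CDK6.

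RNA was sequenced from 41 human samples in 15 groups, to learn how tumour cells answer the inhibition of their driver kinase and how resistant cells answer a changed tumour. Cultures in medium of lowered serum, vehicle included, gave whole-cell RNA. A375, a BRAF-mutant melanoma line, received vehicle or 0.1 µM vemurafenib, a BRAF inhibitor, for 6 h or 48 h (n = 3 each). The melanoma lines Colo800 and UACC62 received 1 µM vemurafenib for 48 h or vehicle, and the lung adenocarcinoma line H3122 received 0.3 µM crizotinib, an ALK inhibitor, for 48 h or vehicle (n = 2 each). A375 xenografts under the skin of mice received 10 doses of vemurafenib at 75 mg/kg or vehicle (n = 4 each). The labels of the last 4 groups name A375R, a derivative of A375 known to be vemurafenib resistant, in tumours read from the titles and the growth protocol as A375R mixed with A375 cells or A375R alone, each with 10 doses of vemurafenib at 75 mg/kg or with vehicle (n = 3 each). Tumour RNA was the fraction bound to tagged ribosomes, pulled down with GFP beads. Titles of the A375R samples name the ribosomal protein RPL10a, but leave unsaid which cells carry the tag in a mixed tumour. Time in vehicle, mouse strain and sex are not given in the labels.

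Depth ran from 8063754 to 42843612 reads per library, and values are read counts divided by 1 size factor per library, called normalised reads here. Changes are log2 changes of normalised reads plus 1, given as estimate ± SE from limma, and a gene is said to rise or fall where its Benjamini-Hochberg adjusted p over all genes tested in its table was under 0.05. Nothing in the labels says that replicates were grown or treated independently, so a p-value here reflects only how far these libraries scatter, and that scatter may be technical. In A375 culture, replicate 3 stood apart. Of 21 p53 target genes other than CDKN1A, 19 had their group's highest value there in vehicle, 19 at 6 h and 13 at 48 h. Lung epithelial markers summed to 8186 to 9415 RPM (reads of the gene scaled by the library's total reads) in H3122 vehicle libraries. They summed to 33.9 to 47.2 in Colo800 and UACC62 vehicle libraries. In A375 they summed to 261 to 348 in vehicle cultures and to 466 to 541 in vehicle tumours. A375R vehicle tumours gave 605 to 647 alone and 726 to 1090 when mixed. Of the 8 lung markers 7 were tested in H3122, but only 3 each in A375 cultures, A375 tumours and A375R tumours. The keratins KRT8 and KRT18 were among the 3 each time, so the A375 and A375R sums rest mainly on few genes. The 8 melanocyte markers summed to 796 to 1029 RPM in A375 vehicle cultures and to 92.7 to 137 in A375 vehicle tumours. In A375R tumours they summed to 11.8 to 23.1 alone and to 16.9 to 54.1 when mixed, against 9.62 to 12.7 in H3122 vehicle cells. TYR, at 0 in all 12 A375R libraries, was also at 0 in all A375 vehicle tumours. The melanocyte origin of A375R tumours is taken from their labels.

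In vehicle the G1 genes stood at different levels in the different lines. Levels are given in RPM across separately normalised tables and so without a test. Tumour levels are of ribosome-bound RNA, and those of A375R rest on fewer listed genes (21595 against 23368). They are set beside the levels of cultures and not ranked with them. CCND1 averaged 3265 ± 109 in H3122 (SD, n = 2), 1355 ± 23.9 in Colo800 (n = 2), 577 ± 12.4 in A375 (n = 3) and 142 ± 1.64 in UACC62 (n = 2), and no library of one line fell within the range of another. A375 vehicle tumours held 244 ± 16.9 (n = 4), and A375R vehicle tumours 535 ± 74.0 when mixed and 401 ± 32.7 alone (n = 3 each). UACC62, lowest in CCND1, was highest in CDKN1A, the p21 gene, with 595 ± 1.74 RPM, against 131 ± 5.08 in Colo800 and 143 ± 0.17 in H3122. H3122, highest in CCND1, was lowest in CDK6 with 23.7 ± 4.55 and in CDKN2C with 13.7 ± 0.34. A375R tumours held 60.8 ± 7.93 of CDK6 and 30.2 ± 1.44 of CDKN2C alone, and 79.8 ± 8.07 and 37.9 ± 5.99 when mixed. The next cultured line in CDK6 was Colo800 with 96.5 ± 2.57, and in CDKN2C UACC62 with 41.7 ± 3.41. Of the cultured lines RB1 was lowest in UACC62, at 26.1 ± 3.32, against 249 ± 7.04 in Colo800. A375R tumours held 27.5 ± 1.76 alone and 29.1 ± 4.45 when mixed, ranges that overlap that of UACC62.

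**Figure D1:**
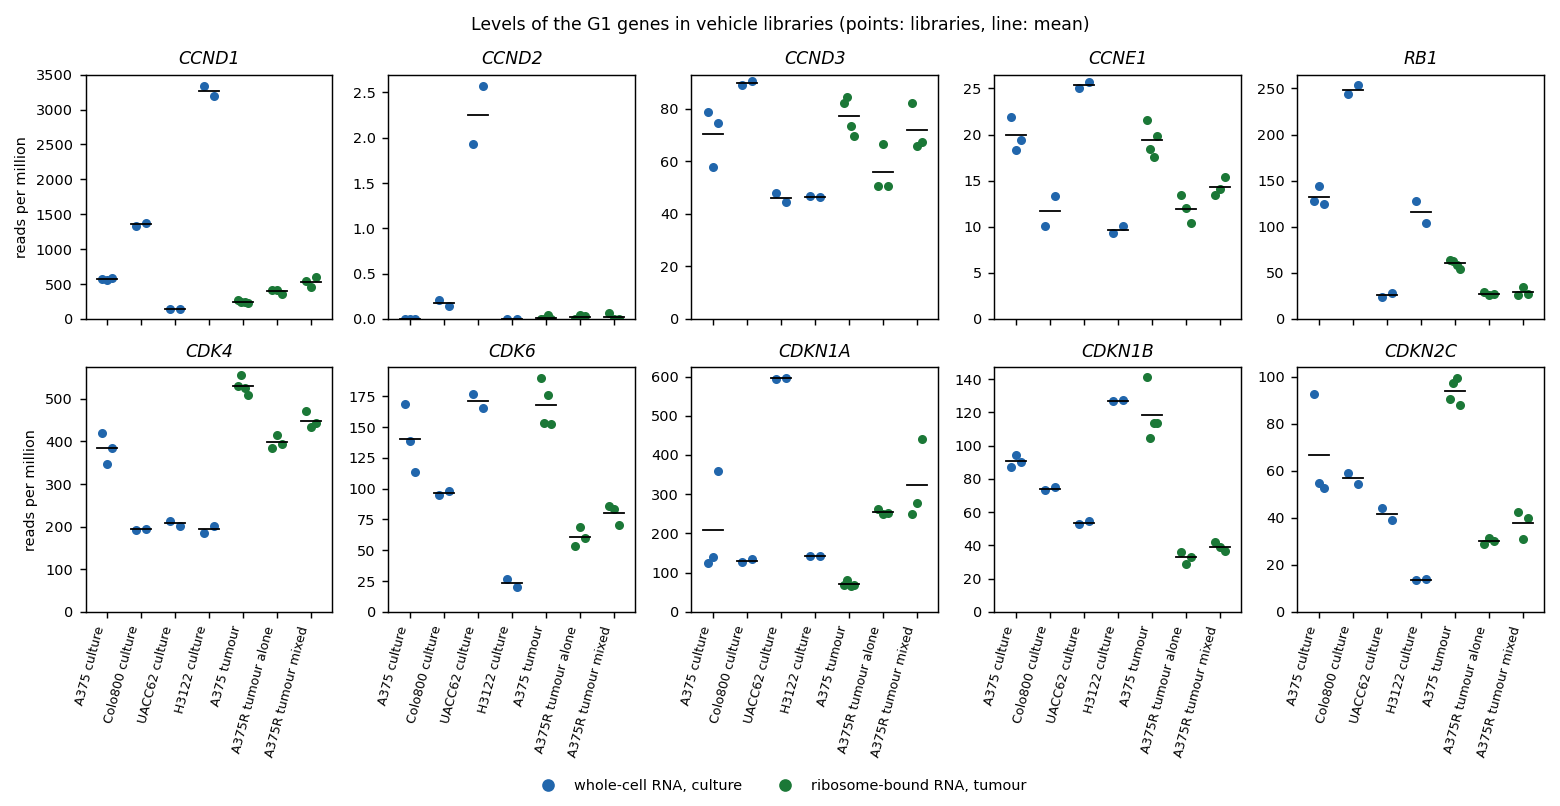
Levels of the 10 G1 genes in the vehicle libraries, in RPM on linear axes that differ between panels. Points are libraries, blue for whole-cell RNA of cultures and green for ribosome-bound RNA of tumours, and lines are group means. Among the cultures CCND1 was highest in H3122 (3265) and CDKN1A in UACC62 (595), while CCND2 was at most 2.57 in any vehicle library.

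CCND2, the D cyclin of many lymphoid and neural cells, had no read in 18 of the 41 libraries, which allows a level of up to 0.0847 to 0.372 RPM depending on depth (3 counts of the library, counting error only). Outside UACC62 it had at most 10 reads in any library. In UACC62 it stood at 34.2 and 32.0 normalised reads with vemurafenib and at 25.0 and 33.0 with vehicle. Those groups overlap, and the change of 0.20 ± 0.26 did not pass (limma adjusted p = 0.542).

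CCND1 was the member that fell most often. It was lower with the drug in A375, Colo800, UACC62 and H3122 cultures and in A375 tumours, and in none of the A375R comparisons. In A375 culture it stood at 6719, 6526 and 7009.8 normalised reads in vehicle, at 880.5, 905 and 2299.6 after 6 h, and at 476, 726 and 759.7 after 48 h. All 3 groups were apart from one another, with 6 h replicate 3 well above the other 6 h libraries. The change was -2.46 ± 0.32 at 6 h (limma adjusted p = 0.00149) and -3.40 ± 0.32 at 48 h (limma adjusted p = 1.87e-05), a mean 4.96-fold and 10.3-fold lower than vehicle. Both comparisons use the same vehicle libraries. Set against 6 h, CCND1 at 48 h changed by a further -0.93 ± 0.32 (limma adjusted p = 0.0392). Without 6 h replicate 3 that difference was -0.48 (limma adjusted p = 0.0731), and without 48 h replicate 1, 2 or 3 it lay between -1.06 and -0.72 with limma adjusted p from 0.0524 to 0.131.

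The deepest fall of CCND1 was in Colo800, to 1049 and 920.3 normalised reads with vemurafenib, against 19656 and 20055 with vehicle. The mean was 20.2-fold lower, a change of -4.34 ± 0.05 (limma adjusted p = 2.9e-21). UACC62 cells held 775 and 919 with vemurafenib and 1822 and 1839 with vehicle, a change of -1.12 ± 0.11 (limma adjusted p = 4.53e-05). H3122 cells, given the ALK inhibitor, held 19962 and 20944 with crizotinib and 47661 and 46344 with vehicle, a change of -1.20 ± 0.09 (limma adjusted p = 1.26e-06). With crizotinib H3122 still held 1548 ± 72.3 RPM of CCND1 (SD, n = 2), a level set beside the vehicle levels of the other lines above without a test. In each of these lines both treated libraries lay under both vehicle libraries. Of all genes tested, 43.1% did so in Colo800, 40.2% in UACC62 and 37.7% in H3122. In A375 culture 11.9% lay under vehicle at 6 h, 30.2% under vehicle at 48 h and 26.5% under 6 h at 48 h. For vemurafenib under vehicle in A375 tumours the share was 30.2%.

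In A375 tumours CCND1 was at 1822, 2104, 1839 and 1766 normalised reads with vemurafenib, and at 3452, 3201, 3169 and 3116 with vehicle. The groups did not overlap, and the change was -0.78 ± 0.07 (limma adjusted p = 7.3e-08), a mean 1.72-fold lower. In RNA pulled down from a tumour, fewer cells of a type and less RNA per cell cannot be told apart. That limit holds for the tumour results that follow as well, and the purity of the pull-down was not tested. With vemurafenib the melanocyte markers of these tumours summed to 587 to 637 RPM, against 92.7 to 137 with vehicle. Fibroblast markers summed to 23.5 to 30.0, against 32.0 to 52.9. Of 6 fibroblast markers tested, 1 rose and 3 fell. COL3A1 changed by 2.66 ± 0.25, COL1A2 by -3.73 ± 0.39 and PDGFRA by -3.14 ± 0.22. The fibroblast list also summed to at most 17.7 RPM in A375 vehicle cultures and to 29.9 to 45.7 at 48 h. That sum is thus not specific to fibroblasts. The part of both marker lists in the results was not tested. Tumours and cultures differ in dose, time and RNA fraction, so the tumour value is set beside the culture values and not compared with them.

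**Figure D2:**
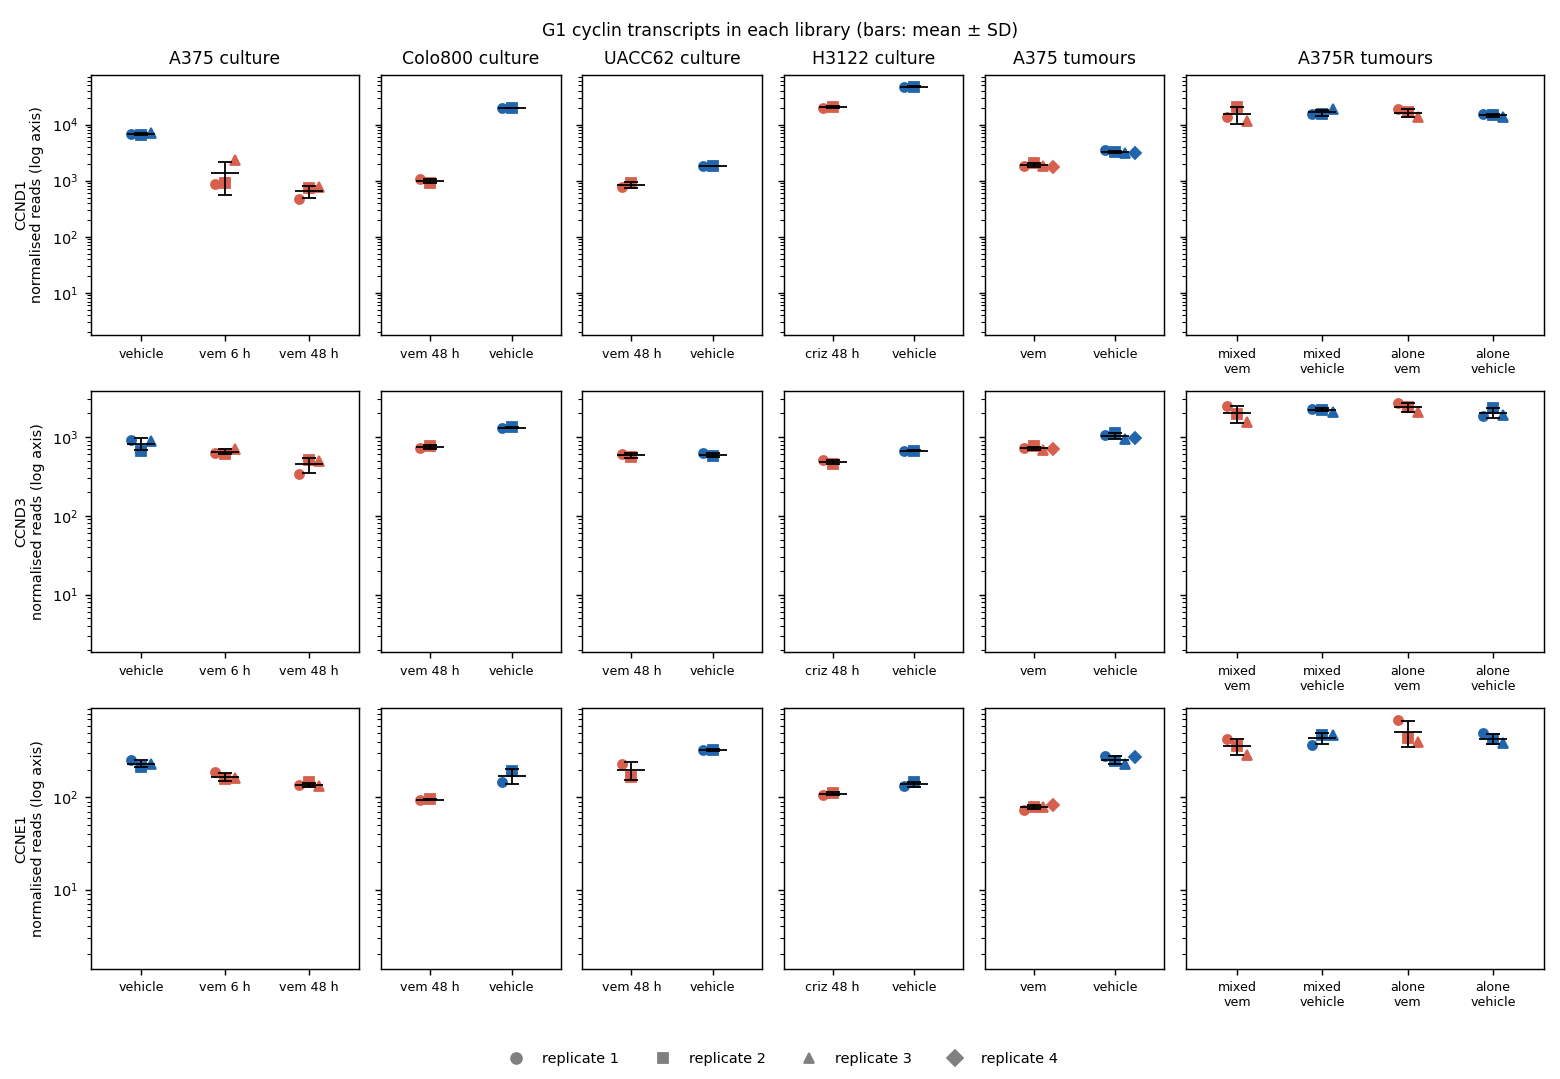
Normalised reads of CCND1, CCND3 and CCNE1 in every library, on log axes. Symbols mark the replicate number, red the drug groups and blue vehicle, and bars are mean ± SD. CCND1 lay lower in every drug group than in its vehicle except in A375R tumours, where it stayed between 11415 and 20789.

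CCND3, the D cyclin with the widest tissue range, fell as well but by less. At 48 h of vemurafenib A375 cells held 339, 516 and 496 normalised reads, against 912, 670.3 and 886 with vehicle, a change of -0.88 ± 0.18 (limma adjusted p = 0.00217). At 6 h the values were 628, 616 and 708, a change of -0.33 ± 0.18 that did not pass (limma adjusted p = 0.395). The 48 h libraries lay under the 6 h ones, with a change of -0.55 ± 0.18 (limma adjusted p = 0.0317), which did not pass without 6 h replicate 1, 2 or 3 or without 48 h replicate 1 (limma adjusted p from 0.054 to 0.101). CCND3 also fell in Colo800 (-0.82 ± 0.05), in H3122 (-0.47 ± 0.10) and in A375 tumours (-0.51 ± 0.08), with limma adjusted p from 1.2e-10 to 0.00187. In UACC62 CCND3 was not called. Its cells held 607 and 557 normalised reads with vemurafenib and 618 and 571 with vehicle, overlapping groups with a change of -0.03 ± 0.11 (limma adjusted p = 0.827).

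Because CCND1 moved more than CCND3, the make-up of the D-cyclin reads shifted. The share of D-cyclin reads from CCND1 is a share of reads and not of transcripts, since the genes differ in length, and it is compared between groups only, with no test. It averaged 89.2% ± 1.36 in A375 vehicle and 64.8% ± 10.1 at 6 h (SD, n = 3 each), and it lay between 58.4% and 60.5% at 48 h. At 6 h it was 58.4% and 59.5% in replicates 1 and 2 and 76.5% in replicate 3. In Colo800 it was 59.3% and 54.4% with vemurafenib, against 93.8% in both vehicle libraries. In UACC62 it was 54.8% and 60.9%, against 73.9% and 75.3%. The 3 melanoma lines thus began at different shares and ended, after 48 h, between 54.4% and 60.9%. In H3122 it averaged 97.7% ± 0.22 in crizotinib and 98.6% ± 0.04 in vehicle (SD, n = 2 each). A375 tumours averaged 72.3% ± 0.91 in vemurafenib and 76.0% ± 1.36 in vehicle (SD, n = 4 each), and in neither did the groups overlap.

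CCNE1, which drives CDK2 at the start of S phase, also fell in all 3 melanoma lines at 48 h and in A375 tumours. In A375 tumours it stood at 72.7, 79.2, 78.5 and 83.0 normalised reads with vemurafenib, against 279, 246, 227 and 274 with vehicle. That is -1.70 ± 0.11 (limma adjusted p = 1.2e-09), a mean 3.27-fold lower with no overlap of the groups. In culture the 48 h changes were -0.75 ± 0.15 in A375, -0.85 ± 0.14 in Colo800 and -0.74 ± 0.16 in UACC62 (limma adjusted p from 4.02e-05 to 0.0047). A375 cells at 48 h held 136, 146 and 131 normalised reads, against 254, 213 and 231 in vehicle. After 6 h they held 187, 157 and 161, all under vehicle, but the change of -0.47 ± 0.15 did not pass (limma adjusted p = 0.115). H3122 cells held 107 and 113 with crizotinib and 133 and 146 with vehicle, a change of -0.34 ± 0.15 (limma adjusted p = 0.0745) that passed in 2 of 15 alternatives, under quantile normalisation (0.0192) and a crossed pairing of the replicates (0.0285).

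The kinases behaved unlike each other. CDK6 fell at 48 h in all 3 melanoma lines, while CDK4 moved little anywhere. CDK6 stood at 576 and 488 normalised reads in Colo800 with vemurafenib, against 1390.2 and 1437 with vehicle (-1.41 ± 0.07, limma adjusted p = 1.1e-12). In UACC62 it stood at 646 and 945, against 2285 and 2122 (-1.49 ± 0.16, limma adjusted p = 8.5e-05). A375 cells held 842, 886 and 1176 at 48 h, against 1961, 1606 and 1353 in vehicle, a change of -0.76 ± 0.19 (limma adjusted p = 0.00604). At 6 h CDK6 was at 1362, 1005 and 1416, which overlapped vehicle, with a change of -0.38 ± 0.19 (limma adjusted p = 0.332). A375 tumours changed by -0.31 ± 0.08 (limma adjusted p = 0.00231), with 1648 to 1938 in vemurafenib and 2051 to 2455 in vehicle. In H3122, 369 and 419.5 with crizotinib overlapped 385 and 298 with vehicle, and the change was 0.21 ± 0.13 (limma adjusted p = 0.205). Without H3122 vehicle replicate 1 it was 0.40 (limma adjusted p = 0.00498).

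CDK4 rose in UACC62 by 0.30 ± 0.11 (limma adjusted p = 0.0438), to 3583 and 3009 normalised reads with vemurafenib against 2770.4 and 2584 with vehicle. In H3122 it fell, with a change of -0.27 ± 0.09 (limma adjusted p = 0.0265), to 2425 and 2222 with crizotinib against 2656 and 2939 with vehicle. Neither call held throughout: the UACC62 change had adjusted p = 0.214 and 0.400 without vehicle replicate 1 or 2, and that of H3122 had 0.0831, 0.0827 and 0.307 without vehicle replicate 2 or crizotinib replicate 1 or 2 (limma). Without a filter on low values UACC62 had 0.0751 and H3122 0.0794, and H3122 also missed under quantile normalisation (0.331), the replicate block (0.102) and DESeq2 (0.0536). In A375, Colo800 and A375 tumours the CDK4 changes lay between -0.14 and -0.09 and did not pass, except in A375 tumours under quantile normalisation (-0.24, adjusted p = 0.00134), the only one of 18 alternatives to call it. The ratio of CDK4 to CDK6 reads, compared between groups only and without a test, averaged 5.07 ± 0.62 in vemurafenib and 2.01 ± 0.04 in vehicle in Colo800 (SD, n = 2 each). In UACC62 it was between 3.18 and 5.55 in vemurafenib and between 1.21 and 1.22 in vehicle. CDK4 overlaps TSPAN31 in the annotation, and the library kit does not mark strand, so reads of the overlapping ends cannot be told apart.

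RB1, the substrate of these kinases, stayed close to vehicle. It fell in 2 lines, with changes of -0.14 ± 0.04 in Colo800 (limma adjusted p = 0.00645) and -0.30 ± 0.10 in H3122 (limma adjusted p = 0.0312). Colo800 cells held 3356 and 3274 normalised reads with vemurafenib and 3578 and 3706 with vehicle. H3122 cells held 1296 and 1410.5 with crizotinib and 1831 and 1511 with vehicle. The Colo800 call was lost without vehicle replicate 2 or vemurafenib replicate 2 (limma adjusted p = 0.0607 and 0.0538) and turned to 0.033 under quantile normalisation (adjusted p = 0.443). The H3122 call was lost without vehicle replicate 1 or either crizotinib library (limma adjusted p = 0.156, 0.234 and 0.0598), without a filter (0.122), and under quantile normalisation (0.140), the replicate block (0.0602) and DESeq2 (0.0576). In A375 culture, UACC62 and A375 tumours RB1 did not pass, although without UACC62 vemurafenib replicate 1 its change there was 0.43 (limma adjusted p = 1.5e-05). LPAR6 lies within RB1, so some reads counted for RB1 may belong to it.

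The inhibitors did not move as a group. CDKN1A and CDKN2C were called higher in some lines and lower in others, and each call of CDKN1B was a rise. CDKN1B, the p27 gene, rose in Colo800, UACC62 and H3122. Colo800 cells held 2459.6 and 2347 normalised reads with vemurafenib, against 1076 and 1096 with vehicle, a change of 1.14 ± 0.05 (limma adjusted p = 9.5e-14). UACC62 cells held 2730.0 and 2569.6, against 684 and 701, a change of 1.93 ± 0.09 (limma adjusted p = 7.2e-07) and a mean 3.83-fold higher. In H3122 the rise was small, to 2183 and 2154 with crizotinib against 1809.9 and 1851 with vehicle (0.24 ± 0.08, limma adjusted p = 0.0254), and it was lost without crizotinib replicate 1 or 2 (limma adjusted p = 0.228 and 0.188). A375 cells did not share the rise. They held 977, 960.4 and 891 at 48 h, against 1012, 1094 and 1075 in vehicle, a change of -0.17 ± 0.12 (limma adjusted p = 0.280), and at 6 h the change was -0.10 ± 0.12 (limma adjusted p = 0.746). A375 tumours held 1636, 1678, 2078 and 1665 with vemurafenib, against 1828, 1398, 1469 and 1560.3 with vehicle. Those groups overlap, with a change of 0.17 ± 0.09 (limma adjusted p = 0.112), and of 0.25 without vehicle replicate 1 (limma adjusted p = 0.0258).

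CDKN2C, the INK4 inhibitor of CDK4 and CDK6, rose in A375 and H3122 and fell in Colo800. In A375 culture it stood at 1075, 633 and 628 normalised reads in vehicle, 1642, 1849 and 1262 at 6 h, and 2914, 1752 and 1909 at 48 h. Every treated library lay above every vehicle library, as for 9.63% of all genes at 6 h and 28.8% at 48 h. The change was 1.05 ± 0.25 at 6 h (limma adjusted p = 0.038) and 1.50 ± 0.25 at 48 h (limma adjusted p = 0.000594). From 6 h to 48 h the change of 0.45 ± 0.25 did not pass (limma adjusted p = 0.177), but did with the replicate number as a block (0.0385), the only one of 18 alternatives to call it. The 6 h call was lost without vehicle replicate 2 or 3 or without 6 h replicate 1 or 2, with limma adjusted p from 0.0784 to 0.162 and changes from 0.92 to 1.02. A375 tumours held 1873, 1455, 1715 and 1415 with vemurafenib and 1174, 1298, 1292 and 1212 with vehicle, a change of 0.37 ± 0.09 (limma adjusted p = 0.00157). H3122 cells held 391 and 345 with crizotinib and 192 and 203 with vehicle, a change of 0.89 ± 0.12 (limma adjusted p = 9.2e-05). Colo800 went the other way, to 185 and 176 with vemurafenib against 866 and 797 with vehicle (-2.19 ± 0.08, limma adjusted p = 1.4e-14), a mean 4.60-fold lower. In UACC62, 474 and 336 with vemurafenib stood under 570.2 and 504 with vehicle, but the change of -0.43 ± 0.17 did not pass (limma adjusted p = 0.0551). It was -0.67 (limma adjusted p = 4e-14) without vemurafenib replicate 1 and -0.18 (limma adjusted p = 0.0443) without vemurafenib replicate 2, fits in which a lone treated library is taken to vary like the vehicle ones.

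CDKN1A, the p21 gene, fell in Colo800 and H3122 and rose in UACC62. Colo800 cells held 355 and 357 normalised reads with vemurafenib, against 1868 and 1964 with vehicle (-2.42 ± 0.06, limma adjusted p = 2.5e-17), a mean 5.38-fold lower. H3122 cells held 937 and 916 with crizotinib, against 2041 and 2084 with vehicle (-1.15 ± 0.08, limma adjusted p = 5.9e-07). UACC62 cells, which had the highest CDKN1A level in vehicle, held 12762 and 11884 with vemurafenib, against 7684 and 7662 (0.68 ± 0.09, limma adjusted p = 0.000192). In A375 culture the replicate number split the values more than the drug did. CDKN1A stood at 1444, 1613 and 4268 in vehicle, 1061, 1355 and 5521 at 6 h, and 1569.7, 2054 and 4333 at 48 h, with replicate 3 highest in each group. The changes were -0.11 ± 0.61 at 6 h and 0.16 ± 0.61 at 48 h (limma adjusted p = 0.958 and 0.840), with an SE several times that of the other lines. The A375 tumour groups overlapped, at 889 to 1170.2 with vemurafenib and 863 to 1085 with vehicle. DINOL overlaps CDKN1A in the annotation, and how reads of the overlap were counted was not tested.

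**Figure D3:**
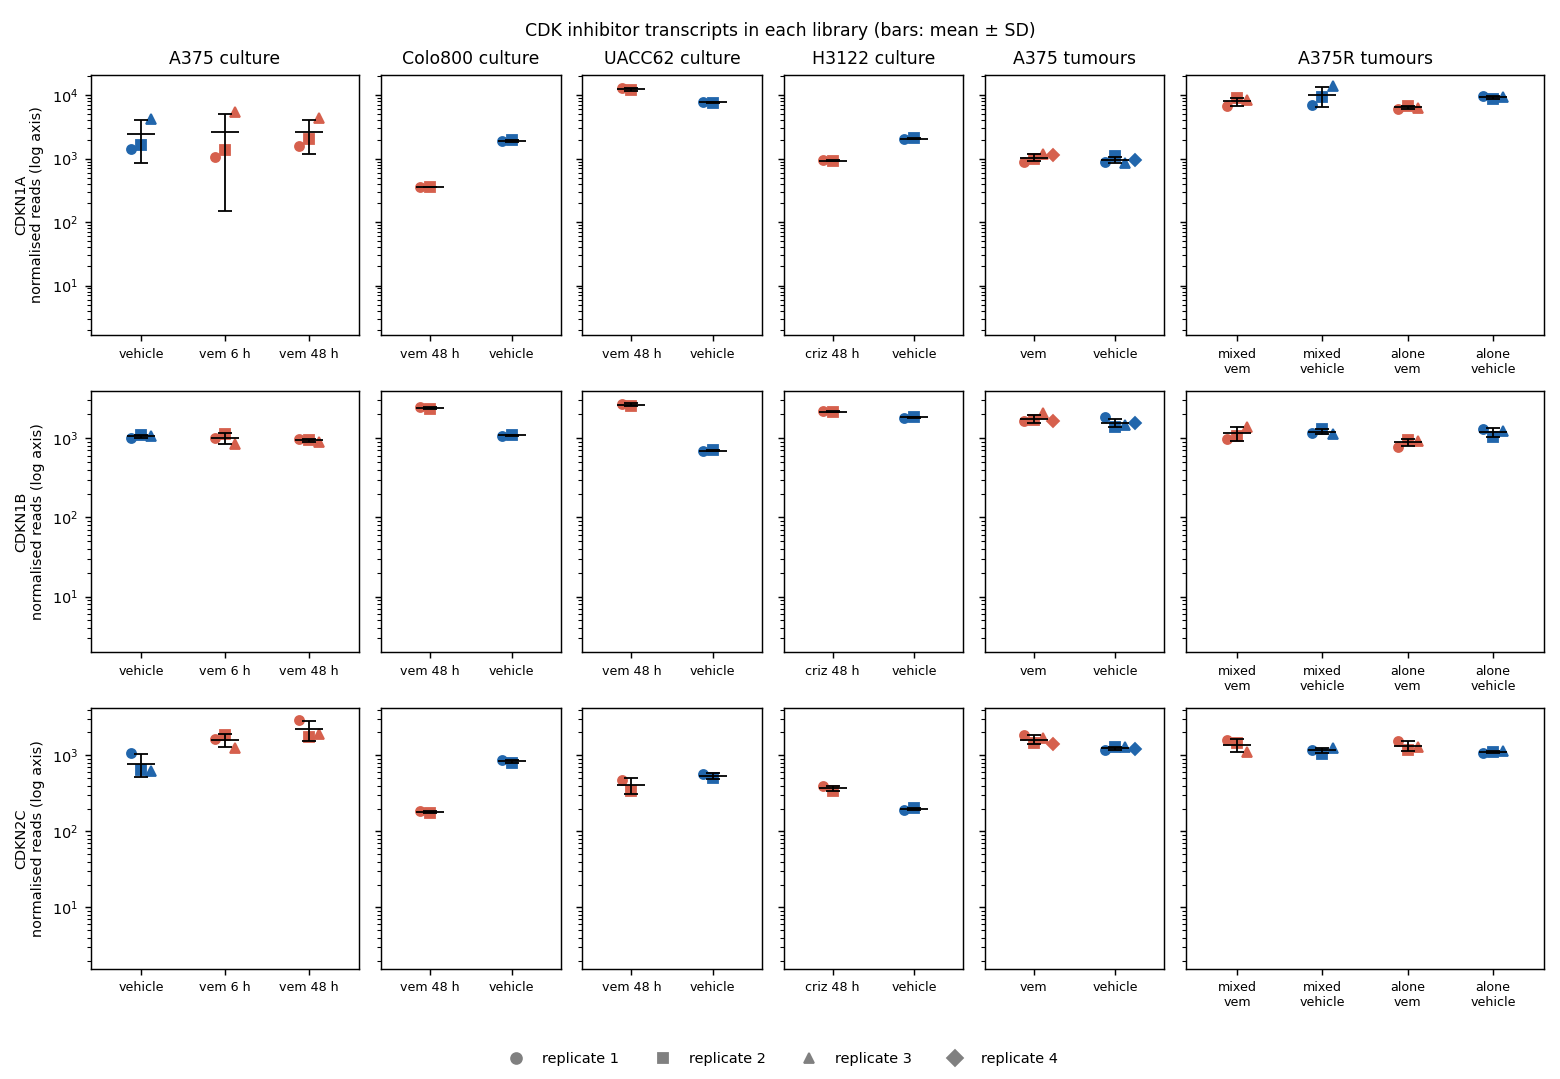
Normalised reads of the inhibitor genes CDKN1A, CDKN1B and CDKN2C in every library, on log axes. Symbols mark the replicate number, red the drug groups and blue vehicle, and bars are mean ± SD. CDKN1B rose in Colo800 and UACC62 but not in A375, CDKN2C rose in A375 and H3122 but fell in Colo800, and replicate 3 of A375 culture is highest in CDKN1A in each of its groups.

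**Figure D4:**
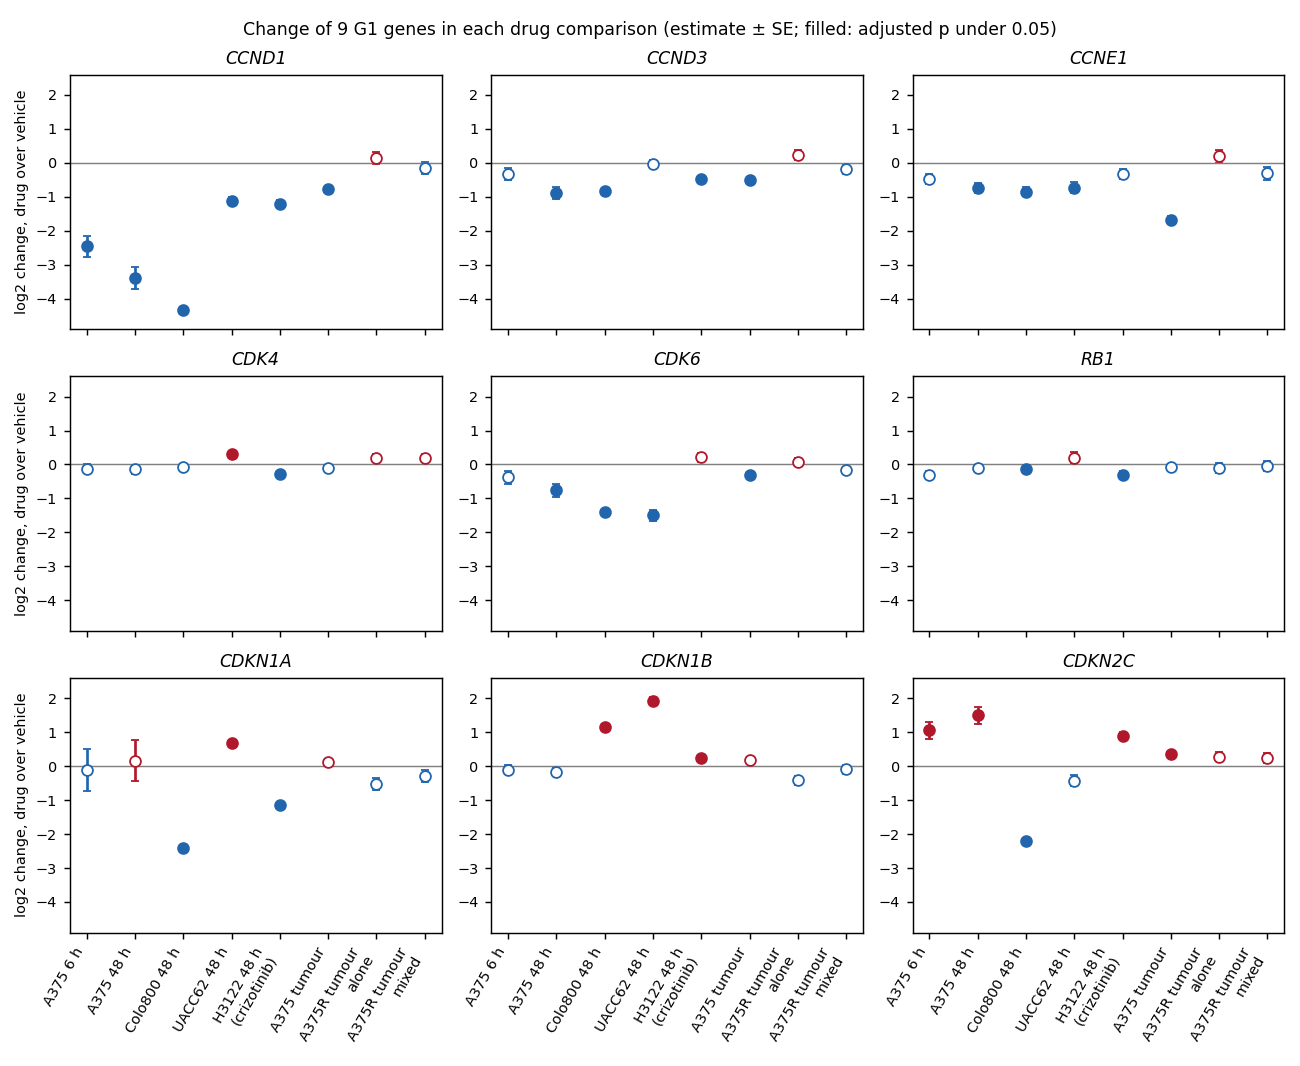
Log2 change of the 9 G1 genes tested in all tables, drug over vehicle, with SE, in each of 8 drug comparisons. Red marks estimates above 0 and blue those below, and filled points passed at an adjusted p under 0.05. CCND1 runs from -0.78 to -4.34 in the A375, Colo800, UACC62 and H3122 comparisons with vehicle and lies between -0.15 and 0.15 in A375R tumours, while the estimates of CDKN1A, CDKN1B and CDKN2C lie on both sides of 0.

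Promoter sequences are shown for CDKN2C and CDKN1B, the inhibitors that rose in more comparisons than CDKN1A, as the 250 bases before the RefSeq start of transcription (GRCh38.p14). RefSeq windows were matched for 8 of the 10 genes. Capitals mark matches to the motifs searched on both strands: AP-1 (TGANTCA), E2F (TTCCCGC or TTGGCGC), ETS (CGGAAGT), FOXO (TGTTTAC), E-box (CACGTG) and SP1 (GGGCGG), where neighbouring SP1 matches may overlap.
CDKN2C, chr1:50968456-50968705, plus strand: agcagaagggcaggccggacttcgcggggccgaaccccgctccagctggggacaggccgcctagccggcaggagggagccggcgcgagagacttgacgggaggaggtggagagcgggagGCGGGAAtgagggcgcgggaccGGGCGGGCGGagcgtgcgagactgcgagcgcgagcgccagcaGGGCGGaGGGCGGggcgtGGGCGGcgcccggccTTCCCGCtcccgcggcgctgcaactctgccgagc
CDKN1B, chr12:12717118-12717367, plus strand: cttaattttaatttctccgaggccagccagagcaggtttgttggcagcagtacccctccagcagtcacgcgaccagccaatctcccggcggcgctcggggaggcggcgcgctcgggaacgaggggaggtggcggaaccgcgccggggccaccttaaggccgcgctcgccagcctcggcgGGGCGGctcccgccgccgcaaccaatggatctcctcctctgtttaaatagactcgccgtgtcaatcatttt
The CDKN2C window held 2 matches to the first E2F motif, starting 131 and 34 bases before the start, and 5 SP1 matches. Of 35116 promoter windows of the same length, 5.52% held that E2F motif and 42.6% the SP1 motif. Another 2 RefSeq windows of CDKN2C, for other start sites, each held an E-box, a motif found in 6.34% of windows. The CDKN1B window held 1 SP1 match and none to the FOXO letters, which 2.98% of windows held. A match is a run of letters and not a bound site, and no match says only that these letters are not in the window.

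The balance between CDKN1B and CCND1 was read as the log2 ratio of their reads, compared between groups only and without a test. In A375 culture it averaged -2.67 ± 0.08 in vehicle, -0.31 ± 1.00 at 6 h and 0.56 ± 0.43 at 48 h (SD, n = 3 each), where CCND1 fell and CDKN1B did not pass. Colo800 stood at 1.23 and 1.35 with vemurafenib and at -4.19 in both vehicle libraries. UACC62 stood at 1.82 and 1.48 with vemurafenib and at -1.41 and -1.39 with vehicle. In all 3 melanoma lines every 48 h library lay above every vehicle library. H3122 averaged -3.24 ± 0.06 in crizotinib and -4.68 ± 0.05 in vehicle (SD, n = 2 each). A375 tumours averaged -0.10 ± 0.21 in vemurafenib and -1.05 ± 0.12 in vehicle (SD, n = 4 each).

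**Figure D5:**
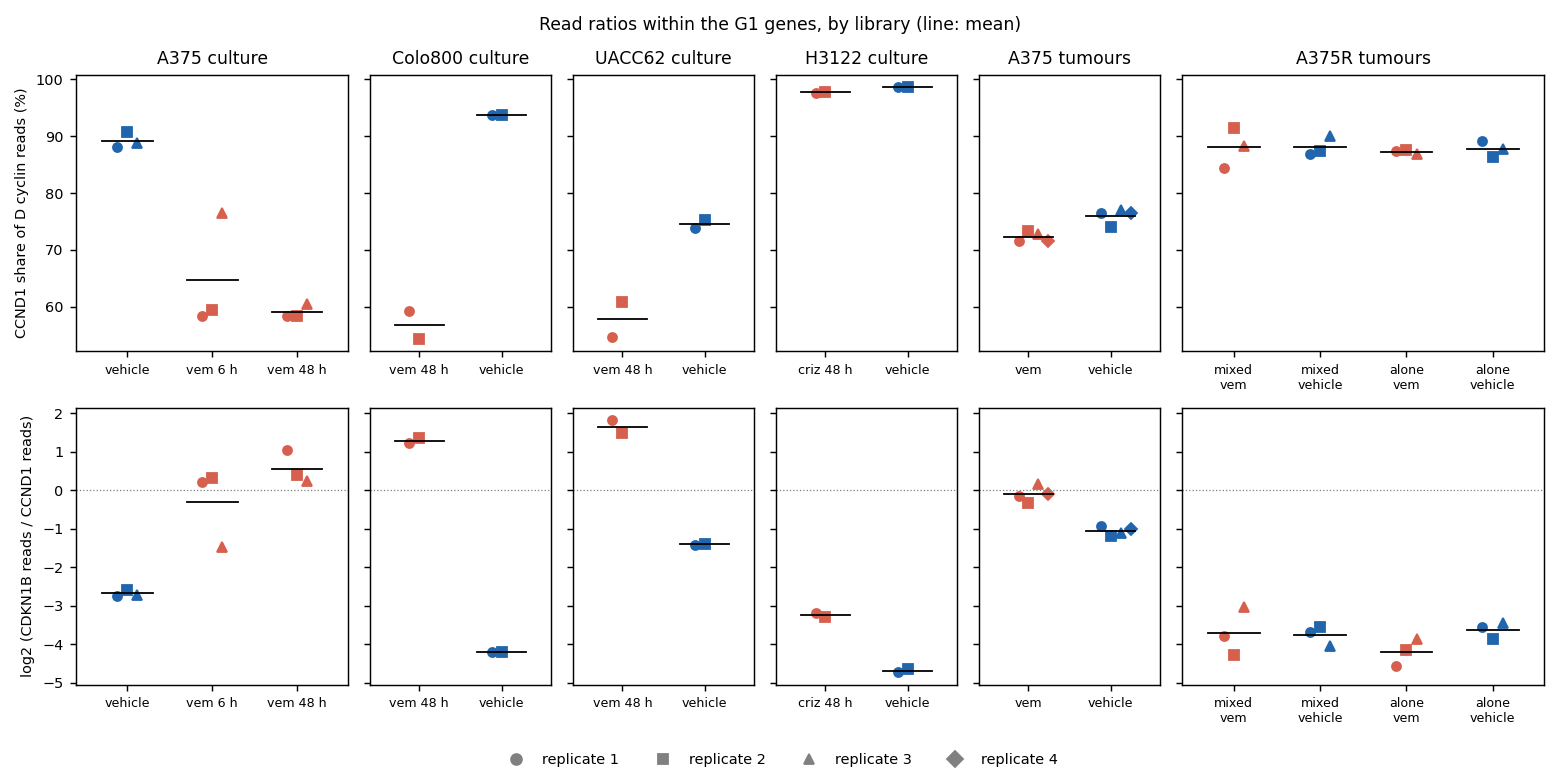
Share of D-cyclin reads that came from CCND1 (percent, upper row) and log2 ratio of CDKN1B to CCND1 reads (lower row) in every library. Symbols mark the replicate number, red the drug groups and blue vehicle, and lines are means. The share ends between 54.4% and 60.9% in the 3 melanoma lines at 48 h, and the ratio is higher there than in all vehicle libraries of the same line.

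Counted over the genes tested, the members called were read against the share of all genes called in the same comparison. At 6 h in A375 culture 1 of 9 rose (CDKN2C) and 1 fell (CCND1), against 1.07% of all genes higher and 3.33% lower. Those shares amount to 608 genes, and 1462 were called with the replicate number as a block. At 48 h 1 rose and 4 fell, against 24.3% higher and 25.6% lower, and from 6 h to 48 h none rose and 2 fell, against 19.6% and 19.7%. With replicate number 3 left out of all 3 groups, 1 member was called at 6 h, 5 at 48 h and 0 from 6 h to 48 h. That fit called 175, 4860 and 3162 of all 13816 genes in the same order. In Colo800 1 of 9 rose and 7 fell, against 36.0% and 37.3%. In UACC62 3 of 10 rose and 3 fell, against 26.9% and 29.6%. In H3122 2 of 9 rose and 5 fell, against 22.1% and 24.0%. With the replicate number as a block 4 members were called there, and 5381 of all 13959 genes. In A375 tumours 1 of 9 rose and 4 fell, against 34.2% and 34.0%. The calls in these 48 h and tumour comparisons thus came from tables in which about as many genes rose as fell and a large share of all genes was called.

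In A375R tumours no member was called in any of the 5 comparisons. With vemurafenib and with vehicle CCND1 stood at 18587, 16903 and 13497 against 15399, 14835 and 13505 normalised reads in A375R alone, and at 13508, 20789 and 11415 against 15121, 15437 and 18829 in mixed tumours. The groups overlap, and the changes were 0.15 ± 0.18 and -0.15 ± 0.18 (limma adjusted p = 0.688 and 0.687). All genes called made up 0.792% in A375R alone and 3.48% in mixed tumours for vemurafenib over vehicle, 0.240% under vemurafenib and 3.30% under vehicle for mixed over alone, and 2.89% for the interaction. At an unadjusted limma p under 0.05 there were 2 of 9 members in A375R alone and 0 in mixed tumours. For mixed over alone there were 2 under vemurafenib and 0 under vehicle, and for the interaction 0. Of 13755 genes tested, 2533, 2770, 1703, 2535 and 2606 were under that cut in the same order. In each comparison edgeR and DESeq2 called 0 members.

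The members nearest to a call in A375R alone were CDKN1A and CDKN1B. CDKN1A stood at 6091, 6864 and 6365 normalised reads with vemurafenib, against 9626, 8788 and 9326 with vehicle, a change of -0.52 ± 0.18 (limma adjusted p = 0.133) that passed only when these 2 groups were fitted alone (adjusted p = 0.0173). CDKN1B stood at 784, 958 and 925, against 1318, 1023 and 1237, a change of -0.42 ± 0.14 (limma adjusted p = 0.118). In both genes the groups did not overlap, with vemurafenib lower, and neither did those of CDK4 and CDKN2C, with vemurafenib higher (changes of 0.20 and 0.28, limma adjusted p = 0.349 and 0.285). Of all genes tested, 13.1% did not overlap with vemurafenib higher and 12.7% with vemurafenib lower. Under vemurafenib CDKN1B was at 983, 1073 and 1397 in mixed tumours, against 784, 958 and 925 in A375R alone, a change of 0.36 ± 0.14 (limma adjusted p = 0.303). CCNE1 was at 430.2, 361 and 285 in mixed tumours, against 689, 441 and 399 alone, overlapping groups with a change of -0.48 ± 0.19 (limma adjusted p = 0.323). Under vehicle 2 of 4 melanocyte markers tested, SOX10 and S100B, were higher in mixed tumours than alone (1.93% of all genes). Under vemurafenib none of the 4 was called, and SOX10 changed by -0.37 ± 0.52 (limma adjusted p = 0.820). SOX10, a melanocyte lineage factor, was at 15.04 to 36.7 RPM in mixed vehicle tumours, against 1.59 to 3.49 in A375R alone with vehicle. With vemurafenib over vehicle in mixed tumours SOX10 changed by -2.75 ± 0.52 and S100B by -1.54 ± 0.33 (limma adjusted p = 0.00863 and 0.0159). These were 2 of 4 markers tested, against 2.23% of all genes lower. Their interactions were -3.35 ± 0.74 and -1.77 ± 0.46 (limma adjusted p = 0.0282 and 0.0495). The part of these shifts in the mixed values, drug changes and interactions of the members was not tested.

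The other genes of the pathway were read from lists. Of regulators of the MAPK pathway and CCND1, 9 of 12 fell and none rose at 6 h in A375 (3.33% and 1.07% of all genes), among them SPRY4 (-4.69 ± 0.24) and DUSP6 (-2.75 ± 0.27), feedback inhibitors that report ERK activity, with a median of -1.72 against 0.00 over all genes. At 48 h 11 fell and JUN rose (3.01 ± 0.30), against 25.6% of all genes lower and 24.3% higher. The same list had 11 lower and 1 higher in Colo800 (37.3% and 36.0% of all genes) and 9 and 2 in UACC62 (29.6% and 26.9%). In H3122 10 were lower and 1 higher (24.0% and 22.1%), and in A375 tumours 9 and 2 (34.0% and 34.2%). With vemurafenib over vehicle none was lower in A375R alone (0.487% of all genes). In mixed tumours 1 was lower, SPRY4 (-0.81 ± 0.13), against 2.23% of all genes.

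E2F targets needed for DNA replication, the step that follows RB1 phosphorylation, had no call among 25 at 6 h in A375. Their median change was 0.03. Of all genes only 3.33% were lower and 1.07% higher there, so a count of 0 is near the share of all genes. At 48 h all 25 were lower, with a median of -2.27, and RRM2, a subunit of ribonucleotide reductase, changed by -4.03 ± 0.27. All 25 fell in Colo800 (median -2.62) and UACC62 (-2.52), and 23 fell in A375 tumours (-1.32), where CDT1 rose by 0.32 ± 0.09. H3122 differed in size: 19 of 25 fell with a median of -0.36, and RRM2 changed by -0.72 ± 0.08. All-gene medians in these comparisons lay between -0.01 and 0.00. Of all genes, 25.6% were lower in A375 at 48 h, 37.3% in Colo800, 29.6% in UACC62 and 24.0% in H3122. In A375 tumours 34.0% were lower and 34.2% higher. In A375R alone 5 rose with vemurafenib and none fell (0.305% and 0.487% of all genes). Among the 5 was MCM6 (0.91 ± 0.15), a part of the replicative helicase. In mixed tumours none was called, against 3.48% of all genes. The list of mitotic cyclins and kinases gave 0 of 13 at 6 h, 13 lower at 48 h in each melanoma line and in A375 tumours, and 9 lower in H3122. These counts are to be read against the same shares of all genes. MKI67, a proliferation marker in that list, changed by -3.24 ± 0.30 at 48 h in A375 and by -0.39 ± 0.10 in H3122.

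Of the other genes of the G1 to S transition, 23 were lower and 2 higher of 34 in A375 at 48 h (25.6% and 24.3% of all genes), and 27 and 4 of 35 in Colo800 (37.3% and 36.0%). In UACC62 17 were lower and 0 higher of 33 (29.6% and 26.9% of all genes), in H3122 11 and 4 of 33 (24.0% and 22.1%), and in A375 tumours 23 and 5 of 34 (34.0% and 34.2%). E2F1, a target of its own product, fell in the melanoma comparisons, with changes of -4.03 ± 0.27 in A375, -3.32 ± 0.09 in Colo800, -4.66 ± 0.17 in UACC62 and -1.76 ± 0.11 in A375 tumours, while in H3122 it changed by -0.04 ± 0.09 (limma adjusted p = 0.753). At 6 h in A375 CDKN1C and E2F5 were lower and none higher of 34 (3.33% and 1.07% of all genes). CDKN1C, the p57 inhibitor of the same family as CDKN1A and CDKN1B, stood at 35.4, 59.1 and 28.5 normalised reads at 6 h, against 103, 132 and 138 in vehicle (-1.63 ± 0.32, limma adjusted p = 0.0147). In A375 tumours it was at 117, 85.3, 139.7 and 124 with vemurafenib, against 12.8, 12.5, 10.7 and 13.1 with vehicle (3.13 ± 0.19, limma adjusted p = 4.7e-10). CDKN2B, an INK4 inhibitor like CDKN2C, fell in Colo800 to 157 and 151, against 2516 and 2636 in vehicle (-4.06 ± 0.06, limma adjusted p = 1e-19), and is listed at 0 in A375, UACC62 and H3122 libraries. In A375R alone E2F2 (0.97 ± 0.20) and E2F8 (0.78 ± 0.17) rose with vemurafenib, against 0.305% of all genes higher. In mixed tumours E2F7 (-0.41 ± 0.11) and E2F3 (-0.47 ± 0.12) fell, against 2.23% of all genes lower. Neither comparison had a call the other way.

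Without replicate number 3 of A375 culture neither CDKN1C nor E2F5 was called at 6 h, and 8 MAPK genes were lower there. The 48 h lists gave 20 lower and 1 higher of the other G1 to S genes, 25 lower E2F targets and 13 lower mitotic genes. Of the p53 targets 14 were higher and 3 lower at 48 h. Of all 13816 genes that fit called 163 lower and 12 higher at 6 h, and 2524 lower and 2336 higher at 48 h.

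Genes that share a regulator with CDKN1A or act on CDKN1B were counted too. Of 21 other p53 targets, 10 rose and 3 fell in A375 at 48 h (24.3% and 25.6% of all genes), 12 and 7 in Colo800 (36.0% and 37.3%), 12 and 1 in UACC62 (26.9% and 29.6%), 8 and 6 in H3122 (22.1% and 24.0%), and 13 and 7 in A375 tumours (34.2% and 34.0%). The shares that fell in Colo800 and H3122 were near those of all genes. TP53INP1, a p53 target that acts in autophagy and cell death, rose by 2.13 ± 0.10 in Colo800 and 1.66 ± 0.10 in H3122. MDM2, the p53 ubiquitin ligase and itself a target, was the 1 that fell in UACC62 (-0.33 ± 0.10), where CDKN1A and 12 of these targets rose. Of 14 FOXO genes and regulators of CDKN1B, 3 rose and 4 fell in A375 at 48 h, 3 and 7 in Colo800, 4 and 6 in UACC62, 4 and 6 in H3122, and 6 and 3 in A375 tumours, to be read against the same shares of all genes. SKP2, which marks the p27 protein for degradation, fell in Colo800 (-1.08 ± 0.06) and UACC62 (-1.39 ± 0.13), where CDKN1B rose. It also fell in A375 at 48 h (-0.74 ± 0.15) and in A375 tumours (-0.67 ± 0.08), where CDKN1B was not called. In H3122, where CDKN1B rose, SKP2 was not called (0.13 ± 0.09). FOXO4, a transcription factor of the FOXO family, rose in A375 at 48 h (1.04 ± 0.14), Colo800 (1.07 ± 0.08), UACC62 (0.94 ± 0.12), H3122 (1.07 ± 0.17) and A375 tumours (0.77 ± 0.09). FOXO3 rose in each of these as well. FOXO1 fell in Colo800 (-0.90 ± 0.06) and UACC62 (-1.22 ± 0.16) and rose in A375 tumours (1.04 ± 0.13). It was not called in A375 at 48 h or in H3122.

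Likeness across samples was measured as Pearson's r of log2 values, each library taken relative to the vehicle mean of its table (for A375R, of its tumour kind), over all 41 libraries and 11231 genes tested in all tables. Libraries of a table share their vehicle mean and treated libraries of a line are not independent, so r is a description. The genes most like CCND1 were ERCC1 (0.94), a DNA repair endonuclease subunit, IER2 (0.94), an immediate early gene, MAFF (0.93), a small basic leucine zipper factor, ACSL3 (0.93), a fatty acyl-CoA synthetase, and RELT (0.92), a receptor of the TNF family. Those most like CDKN1B were PTTG1IP (0.90), FAM177A1 (0.89), RAB5A (0.86), a GTPase of early endosomes, CNPPD1 (0.86) and H1F0 (0.86), a linker histone. Among the members, CCND1 ran most closely with CCND3 (r = 0.81) and CDK6 (0.71), and CDK6 ran against CDKN1B (-0.74).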

How the data were processed

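RNA-seq of 41 samples in 15 groups was analysed from 6 deposited tables. Per the submitters' processing notes the tools were STAR 2.3.0e, HTSeq 0.5.4 and DESeq 1.18.0, with hg19 and mm9 named as builds. No source at hand says how mouse reads in tumours were handled. The deposited signal values are read counts per gene that the authors divided by 1 size factor per library, since all values came out whole, within 0.1, when the factor was undone. The TruSeq RNA kit v2 of the labels does not mark strand.

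Values were tested as log2(value + 1) with limma 3.58.1 (trend, two-sided) in R 4.3.3, with all groups of a table in 1 fit, a table mean of at least 10 as filter and Benjamini-Hochberg adjustment over the table, in 12 comparisons. Tables were normalised separately and no test crosses them. RPM were computed here from the recovered reads and library totals. Replicates differed by more than sampling noise (chi-square per degree of freedom 1.29 to 49.9 over 39 pairs). The fit was tested on simulated data.

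Replicate numbers paired the A375 vehicle and 6 h libraries (correlations of deviations 0.31 to 0.57) and the 6 h and 48 h libraries (0.20 to 0.44), judged from the data and not from the labels.

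Alternatives were pseudocounts of 0.5 and 5, no filter or a filter of 50, quantile and TMM scaling, a replicate block, the 2 groups alone, edgeR 4.0.16, DESeq2 1.42.0 and leaving out each replicate. Where that leaves 1 library in a group, it is assumed to vary like the others. Members and lists were chosen with earlier results of these data known. By rule the text could name all members, DUSP6, SPRY4 and MKI67, up to 3 called genes per list and direction with the smallest adjusted p, and the 5 genes most like CCND1 and CDKN1B. The values of SOX10, and of E2F1, SKP2, FOXO1 and FOXO3 where that rule did not name them, were chosen after they were seen.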

Additional observations from a re-analysis of the deposited data

Results flagged for a closer look

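CDKN1B in A375 tumours with vemurafenib had 1 library apart from the others. Replicate 3 held 2078 normalised reads, against 1636, 1678 and 1665 in the others, and its gap was 0.904 of the group's range, above Dixon's limit for 4 samples. Chance alone marks about 1 in 20 groups in this way.

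CCND1 and CCND3 differed between 48 h and 6 h of vemurafenib in A375 culture, by -0.93 and -0.55 on the log2 scale, by limma's test of that difference. Neither call held throughout: CCND1 passed in 12 of 18 alternatives and CCND3 in 13 of 18.

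For inhibitor genes and CDK4, the treated libraries all lay above the vehicle mean in one line and all below it in another. In some of these lines the change itself did not pass: CDKN1B in A375, CDK4 in Colo800 and CDKN2C in UACC62. These differences of log2 changes set separately normalised tables side by side and were not tested. For CDKN1B the change in A375 at 48 h minus that in Colo800 was -1.31, minus that in UACC62 -2.10 and minus that in H3122 -0.41. For CDKN2C A375 minus Colo800 was 3.70, A375 minus UACC62 1.93, Colo800 minus H3122 -3.09 and UACC62 minus H3122 -1.32. For CDKN1A Colo800 minus UACC62 was -3.11 and UACC62 minus H3122 1.84. For CDK4 Colo800 minus UACC62 was -0.38 and UACC62 minus H3122 0.56.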

How the results depend on the processing

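Of 1858 recomputed log2 changes of the G1 genes, 1751 kept their direction and side of the threshold, 39 lost a call, 12 gained one and 56 turned. Of these 1 was a called change: RB1 in Colo800 was 0.033 under quantile normalisation (adjusted p = 0.443). The other 55 were changes that passed neither before nor after, 43 of them when single replicates were left out. The causes were not tested. CCND1 over vehicle passed under every alternative in A375, Colo800, UACC62, H3122 and A375 tumours. The number of members called at 6 h in A375, 2, was 1 with edgeR on DESeq2 size factors and 1 without replicate number 3 in every group, and 1 to 2 when single replicates were left out. For 48 h against 6 h it was 2, and 1 with the 2 groups alone, 0 without replicate number 3, and 0 to 1 without single replicates. In H3122 7 became 4 with the replicate block, and 4 to 7 without single replicates. In A375R alone 0 became 1 with the 2 groups alone. Leaving out replicate number 3 and a crossed pairing of H3122 (same-number correlation -0.209) were chosen after seeing the data.

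Quantile normalisation turned CDK4 to 0.022 at 6 h, 0.056 at 48 h and 0.034 for 48 h over 6 h in A375, to 0.044 in Colo800 and to 0.10 for mixed over alone under vehicle, where CCNE1 turned to -0.015. It turned CDKN1A at 6 h to 0.0066 and CCND3 in UACC62 to 0.0048. CDKN1A at 6 h was 0.13 with edgeR and TMM, 0.11 with edgeR on DESeq2 size factors and 0.12 with DESeq2, and CDKN1B at 6 h was 0.030 without replicate number 3 in every group. The others turned when single replicates were left out, and their changes are given as the range over those fits. For 6 h over vehicle in A375 it ran for CDKN1A from -0.84 to 0.39 and for CDKN1B from -0.20 to 0.020. For 48 h over vehicle in A375 it ran for CDKN1A from -0.26 to 0.66. For 48 h over 6 h in A375 it ran for CDK4 from -0.11 to 0.086, CDKN1A from -0.18 to 1.01 and for CDKN1B from -0.19 to 0.030. In UACC62 it ran for CCND3 from -0.092 to 0.030 and for RB1 from -0.033 to 0.43. For vemurafenib over vehicle in A375R alone it ran for CCNE1 from -0.043 to 0.35 and for CDK6 from -0.012 to 0.14. For vemurafenib over vehicle in mixed tumours it ran for CCND1 from -0.40 to 0.033, CCND3 from -0.35 to 0.00077, CDKN1B from -0.23 to 0.019 and for RB1 from -0.18 to 0.14. For mixed over alone under vemurafenib it ran for CCND1 from -0.38 to 0.050, CDK4 from -0.14 to 0.023 and for CDKN2C from -0.074 to 0.20. For mixed over alone under vehicle it ran for CCNE1 from -0.058 to 0.14, CDKN1A from -0.20 to 0.29 and for CDKN1B from -0.079 to 0.10. For the interaction it ran for CDK4 from -0.074 to 0.089, CDKN2C from -0.15 to 0.12 and for RB1 from -0.076 to 0.25.

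Counts over all genes moved by over 1.5 times in these cases. The replicate block gave 1462 at 6 h in A375 (608 without it), DESeq2 gave 1045, and leaving out replicate number 3 gave 175 there and 3162 for 48 h against 6 h, in place of 5427. In A375R alone 109 became 14 with no filter, 298 with the block, 492 with the 2 groups alone and 748 with DESeq2. In mixed tumours 478 became 229 with the 2 groups alone and 958 with DESeq2. For mixed over alone under vemurafenib 33 became 11 with no filter, 10 with quantile normalisation, 65 with the block, 8 with the 2 groups alone, 13 with edgeR and TMM, and 152 with DESeq2. Under vehicle 454 became 297 with a filter of 50 and 870 with DESeq2, and for the interaction 397 became 185 with no filter and 887 with DESeq2. Without single replicates the counts ran from 309 to 640 at 6 h, from 1 to 326 in A375R alone, from 105 to 562 in mixed tumours, from 1 to 38 and from 124 to 668 for mixed over alone under vemurafenib and under vehicle, and from 10 to 539 for the interaction. Among the members the block lost the calls of CDK4 (adjusted p = 0.102), CDKN1B (0.134) and RB1 (0.0602) in H3122, gained CDKN2C in UACC62 (0.00491) and for 48 h against 6 h in A375 (0.0385), and changed no other. The crossed pairing gained CCNE1 (0.0285) and CDK6 (0.0346) in H3122. Depth limits CCND2, with 18 libraries at 0.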
